A study of Homo sapiens with 6 samples.

Results

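SGK1 and 9 other genes that respond to glucocorticoids were followed in spinophilin-silenced and control SUM159 breast cancer cells. The genes were chosen by symbol with earlier results of these arrays in view. SGK1 was selected on its own difference between silenced and control arrays, and FKBP5, TSC22D3, PER1, DUSP1, KLF9, CEBPD, ZFP36, NR3C1 and ERRFI1 were added as known glucocorticoid-responsive genes or, for NR3C1, as the receptor itself. Of these 10 genes, 6 had a named row in the value table, namely SGK1, FKBP5, PER1, DUSP1, KLF9 and ERRFI1, among 14884 named genes and 53617 transcript clusters in all. Each of the 6 was read by 1 transcript cluster, the set of probes that the array assigns to 1 gene. TSC22D3, CEBPD, ZFP36 and NR3C1 were not analysed here. Since SGK1 was picked for its difference in this very contrast, the values of the 6 genes, with their differences and intervals, are given as a description. No p-value is printed for them, and counts of calls among them stand only beside the share over all transcript clusters.

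SUM159 is a basal-like breast cancer cell line. Both groups were stably transduced with lentiviral particles and selected with puromycin, the silenced cells with a short hairpin RNA (shRNA) against spinophilin and the control cells with a scrambled shRNA. Spinophilin is a scaffold protein that binds protein phosphatase 1. RNA of 3 silenced and 3 control samples, which carry the replicate labels 1, 2 and 2d in each group, was hybridized to 1 Affymetrix Human Gene 2.0 ST array per sample. The medium of SUM159 cells holds insulin and hydrocortisone, so both groups grew with a glucocorticoid and no array stands for cells without one. A single shRNA sequence was used, and spinophilin's own transcript was not analysed here. The methods call the samples biological triplicates, while the labels do not explain the letter in 2d or say whether arrays 2 and 2d come from separate cultures. Every n = 3 therefore counts arrays. When the means of arrays 2 and 2d were used, limma called 12 transcript clusters at an adjusted p under 0.05 in place of 110, and the log2 difference of SGK1 was 0.685.

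Glucocorticoids bind the glucocorticoid receptor, which leaves its chaperone complex, enters the nucleus and binds glucocorticoid response elements in DNA. Among its best known targets are genes that limit signaling, such as phosphatases and feedback inhibitors, and genes of metabolism and the circadian clock. SGK1 encodes serum- and glucocorticoid-regulated kinase 1, a relative of AKT that is activated by PDPK1 and mTOR complex 2 and acts on ion channels, NDRG1 and FOXO factors. Its transcript is induced by serum, growth factors and osmotic stress as well as by glucocorticoids.

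Values are log2 expression values, so a difference of 1 is a doubling. The 6 arrays had medians between 5.19 and 5.23, and 6 of the 7 measured basal or mesenchymal markers lay above them on all arrays, with 12.52 to 12.63 for VIM and 11.10 to 11.44 for FN1. The exception was TWIST1 with 5.05 to 5.30, around the array medians. The luminal list was mixed. The receptors ESR1 and PGR lay between 3.63 and 4.50, below the array medians, as did EPCAM with 4.03 to 4.39, FOXA1 and TFF1. KRT18 with 8.17 to 8.65, GATA3 with 6.10 to 6.34, KRT8 with 6.10 to 6.31 and KRT19 with 5.60 to 6.04 lay above them. These are the brightest transcript clusters of each gene. A further one of KRT18 read only 6.26 to 6.44, and further ones of VIM read between 10.03 and 11.52. TWIST1, ESR1, FOXA1 and TFF1 were named after their values were seen. Of 7 measured basal or mesenchymal and 9 luminal markers, 0 passed limma's test at an adjusted p under 0.05 and 0 had an unadjusted p under 0.05. The shares over all transcript clusters were 0.205% and 7.39%. The mean level of the basal list was 9.48 to 9.52 on the control and 9.44 to 9.53 on the silenced arrays, and that of the luminal list 5.44 to 5.47 and 5.38 to 5.47.

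SGK1 (transcript cluster 17023810, chromosome 6), the gene selected on this contrast, stood apart from the other 5 measured genes. Its log2 expression was 6.05, 5.82 and 5.60 on control arrays 1, 2 and 2d and 6.56, 6.86 and 6.29 on silenced arrays 1, 2 and 2d. All 3 silenced arrays lay above all 3 control arrays, and the lowest silenced array lay 0.24 above the highest control array. The group means were 5.82 ± 0.23 (SD, n = 3) and 6.57 ± 0.28 (SD, n = 3). The log2 difference, silenced minus control, was 0.74 with a standard error of 0.17, which is 1.68-fold, and the 95% interval ran from 0.34 to 1.15. Among the named genes 49 had a higher log2 difference than SGK1, and 0.796% of all transcript clusters had a larger difference in either direction.

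The other 5 genes lay close to 0. FKBP5 (transcript cluster 17018497, chromosome 6) encodes a co-chaperone that binds the glucocorticoid receptor complex and lowers its affinity for hormone, in a negative feedback loop. It read 7.48, 7.52 and 7.64 on the control arrays and 7.57, 7.58 and 7.67 on the silenced arrays, a log2 difference of 0.06 (SE 0.08, 95% interval -0.14 to 0.26). The 2 groups overlapped, and in both the 2d array was the highest.

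PER1 (transcript cluster 16840846, chromosome 17), a repressor of the circadian clock and a direct target of the receptor, was the steadiest of the 6. Its control values were 6.26, 6.25 and 6.27 and its silenced values 6.34, 6.27 and 6.25. The log2 difference was 0.03 (SE 0.07, 95% interval -0.15 to 0.20) and the groups overlapped. Over the 6 arrays PER1 spanned 0.09, whereas SGK1 spanned 1.26.

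DUSP1 (transcript cluster 17002846, chromosome 5) encodes a phosphatase that switches off MAP kinases and carries part of the anti-inflammatory action of glucocorticoids. Its values were 8.33, 8.40 and 7.95 on the control and 8.27, 8.13 and 8.07 on the silenced arrays. Control array 2d was the lowest of all 6 and control array 2 the highest, so that the silenced arrays lay inside the range of the control arrays. The log2 difference was -0.07 (SE 0.13, 95% interval -0.39 to 0.24).

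KLF9 (transcript cluster 17094761, chromosome 9), a zinc finger transcription factor that the receptor induces in many tissues, read 6.45, 6.63 and 6.56 on the control and 6.71, 6.71 and 6.52 on the silenced arrays. Silenced arrays 1 and 2 lay above all control arrays and silenced array 2d did not. The log2 difference was 0.10 (SE 0.09, 95% interval -0.13 to 0.32), the highest of the 5 genes beside SGK1.

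ERRFI1 (transcript cluster 16681304, chromosome 1) encodes MIG6, a feedback inhibitor of the EGF receptor. Its values were 10.19, 10.39 and 10.45 on the control and 10.24, 10.06 and 10.46 on the silenced arrays, with a log2 difference of -0.09 (SE 0.13, 95% interval -0.39 to 0.20). The highest and the lowest array were both silenced arrays, 2d and 2, so the groups overlapped over the whole control range.

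**Figure D1:**
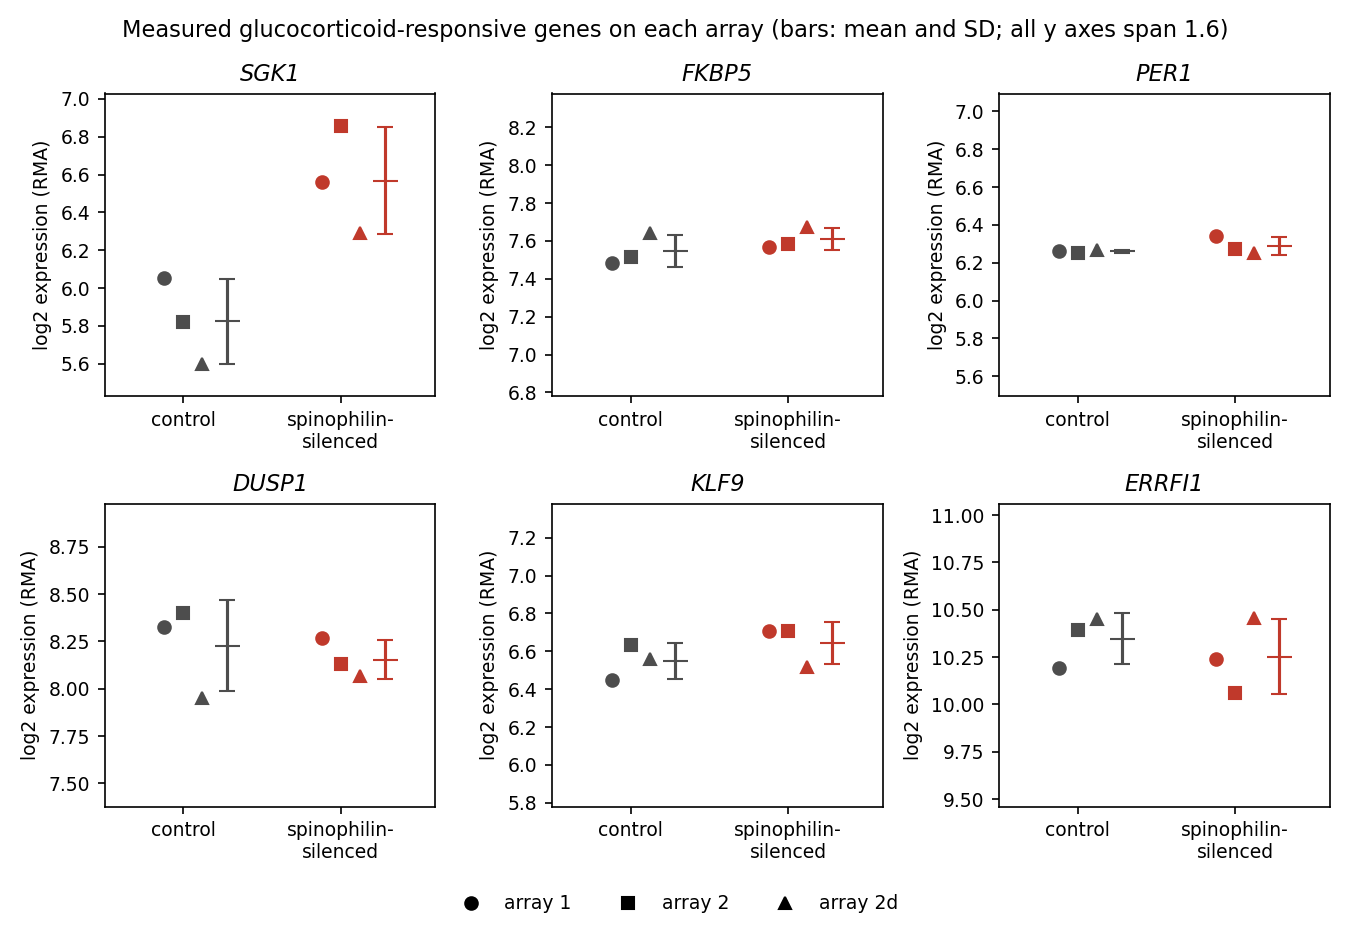
Log2 expression (y axis, each panel spanning the same range of values) of the 6 measured genes on the control and silenced arrays, with array 1 as circles, 2 as squares and 2d as triangles, and with the mean and SD of 3 arrays beside them. In the SGK1 panel the silenced arrays, 6.29 to 6.86, lie above the control arrays, 5.60 to 6.05, while the groups overlap in the other 5 panels.

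Read as a group, 4 of the 6 genes had a log2 difference above 0, with a median of 0.045 against -0.003 over all transcript clusters. The median size of the difference was 0.084, against 0.091 over all transcript clusters and 0.079 over the named genes. For the 5 genes without SGK1 the median was 0.03 and the median size 0.07. The 95% intervals of all 5 stayed within 1.5-fold, which is 0.585 in log2, in either direction. Between 48.1% and 83.0% of all transcript clusters had a larger difference than each of these 5 genes.

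At an adjusted p under 0.05 (limma, Benjamini-Hochberg over all transcript clusters), 0 of the 6 genes were called, where 110 of 53617 transcript clusters, or 0.205%, were. The methods of the study ask for a p under 0.05 and at least 1.5-fold and do not say whether that p was adjusted. With limma's unadjusted p and group as the only term, 1 of 6 passed both limits, and this was SGK1, with a background of 1.33% in either direction and 0.858% for higher values in silenced cells. At an unadjusted p under 0.05 alone it was again SGK1 alone, with a background of 7.39%. All silenced arrays lay above all control arrays for SGK1 only, as they did for 6.43% of all transcript clusters, and below for 0 of the 6, against 6.27%. Since SGK1 was selected on this contrast, nothing is read from its place in these counts.

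**Figure D2:**
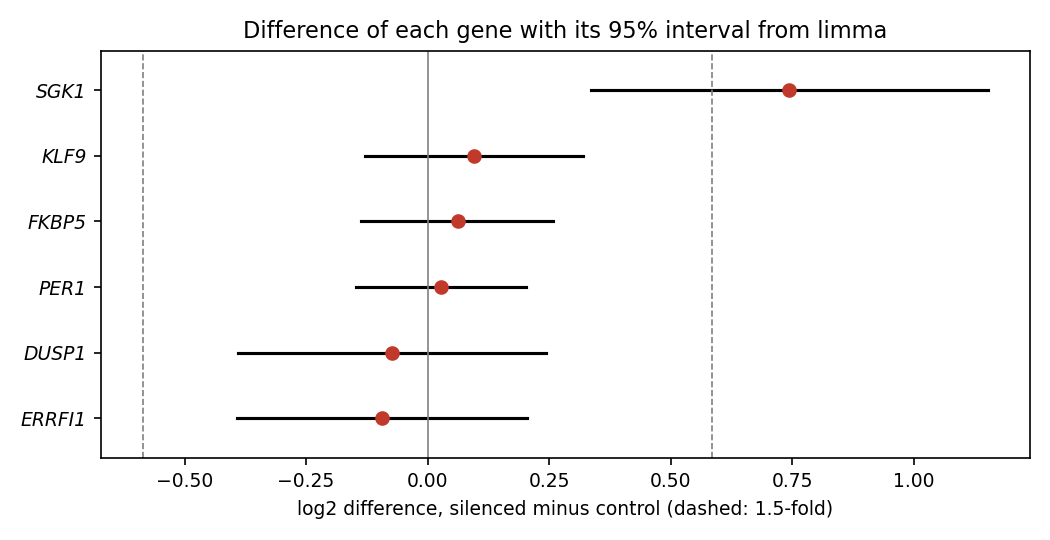
Log2 difference, silenced minus control (x axis), of each measured gene, with its 95% interval from limma over 3 arrays per group. Dashed lines mark 1.5-fold in each direction. SGK1 lies at 0.74 with an interval from 0.34 to 1.15, and the intervals of KLF9, FKBP5, PER1, DUSP1 and ERRFI1 include 0 and stay inside the dashed lines.

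The level of SGK1 varied within each group as well. Control array 1 with 6.05 lay above control array 2d with 5.60, and silenced array 2 was the highest of all with 6.86. The mean of the other 5 genes was 7.74, 7.84 and 7.78 on the control and 7.82, 7.75 and 7.79 on the silenced arrays, which places silenced array 2, the highest for SGK1, second lowest for the other genes. Across the 6 arrays the Pearson r with SGK1 was 0.55 for KLF9, 0.45 for PER1, 0.05 for DUSP1, 0.04 for FKBP5 and -0.73 for ERRFI1. These are descriptions over 6 arrays of 2 groups that share 1 normalization, and the group difference of SGK1 is part of each.

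The 5 named genes whose pattern over the 6 arrays was most like that of SGK1, among 10002 genes with a mean level above the median, were PCDH10, LRRFIP2, NMT2, NXT2 and APPBP2, with Pearson r between 0.98 and 0.99. PCDH10, a protocadherin, read 5.53, 5.50 and 5.36 on the control and 5.75, 5.92 and 5.69 on the silenced arrays. NXT2, a partner of mRNA export factors, read 7.06, 6.92 and 6.79 on the control and 7.52, 7.60 and 7.19 on the silenced arrays. Both follow the order of the SGK1 arrays, with control array 2d lowest and silenced array 2 highest. Their log2 differences were 0.32 for PCDH10 and 0.51 for NXT2, and those of LRRFIP2, NMT2 and APPBP2 were 0.25, 0.20 and 0.23. In the same ranking KLF9 came at place 1732, PER1 at 2207, DUSP1 at 4609, FKBP5 at 4636 and ERRFI1 at 9272.

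**Figure D3:**
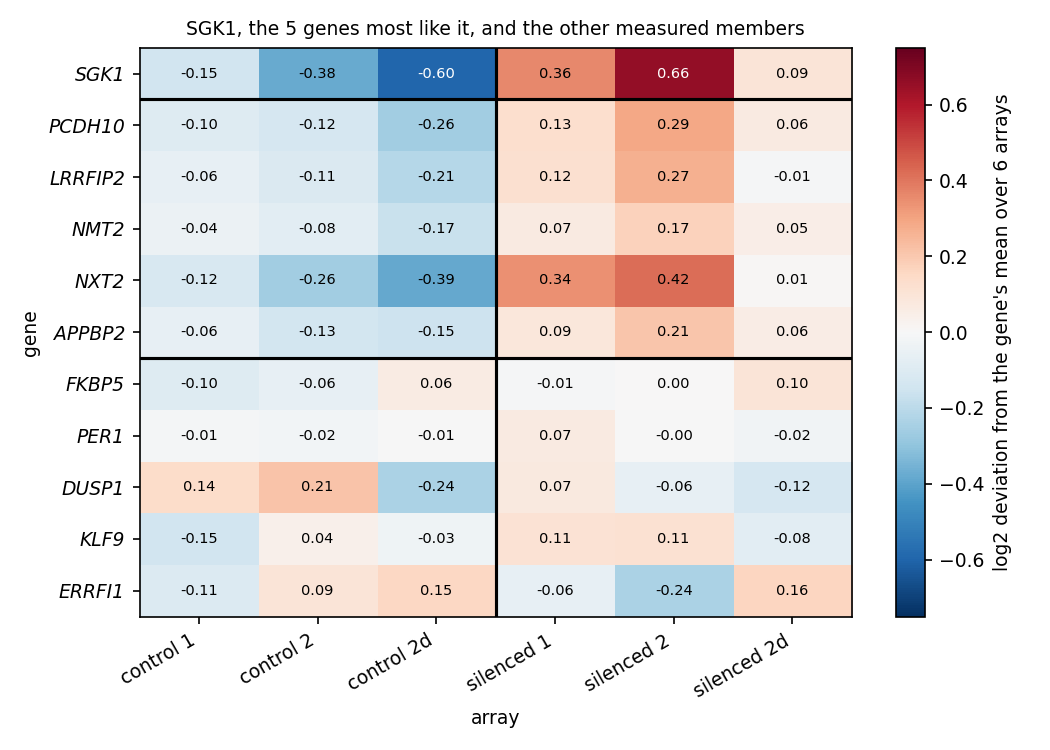
Log2 deviation of each gene (rows) from its mean over the 6 arrays (columns), with blue below and red above the mean. SGK1 is at the top, the 5 genes most like it follow, and the other 5 measured glucocorticoid-responsive genes are at the bottom. SGK1 and the 5 genes chosen for their likeness share the lowest value on control array 2d and the highest on silenced array 2, and the 5 genes at the bottom do not have both.

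Promoter sequences of the 6 measured genes are shown as a description, and any part of them in the differences was not tested. Sequences are from RefSeq on GRCh38.p14, where each window holds 250 bases before and 50 bases after an annotated start. The 6 genes had 9 such windows, 3 of SGK1, 2 of FKBP5 and 1 of each other gene, all on the minus strand. Both strands were searched for the full glucocorticoid response element in its strictest form (AGAACA and TGTTCT 3 bases apart), its single arm AGAACA, the cAMP response element TGACGTCA, the E-box CACGTG and the TATA box TATAAA. No match overlapped another. Capitals in the stretches printed here mark these matches, and TTTATA is a TATA box read on the opposite strand.
SGK1, chr6:134174867-134174976, minus strand: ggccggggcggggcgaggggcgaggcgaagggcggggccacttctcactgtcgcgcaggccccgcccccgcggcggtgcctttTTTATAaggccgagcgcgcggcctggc
SGK1, chr6:134177862-134177971, minus strand: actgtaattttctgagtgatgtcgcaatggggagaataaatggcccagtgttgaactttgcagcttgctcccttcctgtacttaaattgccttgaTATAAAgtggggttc
SGK1, chr6:134318113-134318222, minus strand: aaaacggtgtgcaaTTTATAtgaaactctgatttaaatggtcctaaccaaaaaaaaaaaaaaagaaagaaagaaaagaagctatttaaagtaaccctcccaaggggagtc
DUSP1, chr5:172771196-172771325, minus strand: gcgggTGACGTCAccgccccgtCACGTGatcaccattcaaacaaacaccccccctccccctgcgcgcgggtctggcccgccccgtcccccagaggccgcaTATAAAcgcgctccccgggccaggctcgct
PER1, chr17:8152535-8152594, minus strand: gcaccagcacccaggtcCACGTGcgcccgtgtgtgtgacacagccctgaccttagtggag
FKBP5, chr6:35728566-35728595, minus strand: caccactaccccAGAACAaactcctacctc

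The full element in this strict form was in 0 of the 9 windows and in 1 of 35116 windows of all genes, or 0.00285%. The single arm was in 2 of the 9, 1 of SGK1 and 1 of FKBP5, just after the start in both, and in 14.8% of all windows. A TATA box was in 4 of the 9 windows and in 11.5% of all windows. All 3 windows of SGK1, which are different starts of 1 gene, held one, at 27, 15 and 96 bases before the start. Those at 27 and 96 were on the opposite strand and that at 15 on the strand of the gene. The window of DUSP1 held one on the strand of the gene, 30 bases before the start. DUSP1 also held the cAMP response element, 125 bases before the start, which 1.85% of all windows hold, and an E-box at 108. E-boxes, which the CLOCK and BMAL1 pair binds, were also found for PER1 at 173 and for FKBP5 at 227 bases before the start, and in 7.26% of all windows. The windows of KLF9 and ERRFI1 held none of these letters. These matches describe the letters of short windows and say nothing about binding, and the array's probes do not tell which start was used.

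The genes that surround the receptor were read from lists of pathway members. Across 11 lists, 124 genes beside the 6 were measured, with a median log2 difference of -0.002 and 60 of them above 0. At an adjusted p under 0.05 (limma, Benjamini-Hochberg), 0 of the 124 passed, against 0.205% of all transcript clusters. A limma unadjusted p under 0.05 was reached by 15, against 7.39%. Of the 124, 1, EGR1, passed the unadjusted p with 1.5-fold, against 1.33% of all transcript clusters in either direction. All silenced arrays lay above all control arrays for 15 of the 124, or 12.1%, and below for 9, or 7.26%. These shares stand beside 6.43% and 6.27% of all transcript clusters and 6.55% and 7.67% of the named genes. The lists are described in turn by their counts, with values for the brightest genes and the ends of each range. Counts at limma's adjusted p under 0.05 stand beside 0.205% of all transcript clusters. Those at an unadjusted p under 0.05 stand beside 7.39%.

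Of 8 genes for steroid receptors and steroid access, 4 were measured and 3 had a log2 difference below 0, with a median of -0.19. HSD11B2, the enzyme that inactivates cortisol, read 5.74, 5.70 and 5.54 on the control and 5.32, 5.46 and 5.47 on the silenced arrays, without overlap. Its log2 difference was -0.24 (SE 0.09) with an adjusted p of 0.63 in limma. HSD11B1, which regenerates cortisol from cortisone, had a log2 difference of 0.06, and H6PD, which supplies its cofactor, one of -0.33, where control array 2d with 5.82 was the highest. PGR, the progesterone receptor, differed by -0.14 at levels between 3.63 and 3.87.

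The chaperones that hold the receptor ready for hormone lay close to 0. Of 12 listed 5 were measured, from -0.10 for BAG1 to 0.10 for PTGES3, the p23 co-chaperone, and all 5 overlapped between the groups. Most transcript clusters overlap likewise, since all silenced arrays lay above all control arrays for only 6.43% of them and below for 6.27%. STIP1, which links the HSP70 and HSP90 chaperones, differed by -0.02, the heat shock protein HSPA4 by 0.03 and the cyclophilin PPID by -0.05. Among 10 measured of 16 receptor coregulators the median was -0.01. The acetyltransferases EP300 and CREBBP differed by -0.01 and 0.03, the Mediator subunit MED1 by -0.07 and the methyltransferase CARM1 by -0.16. MED14, the Mediator subunit that contacts the receptor's activation domain, read 10.12, 9.96 and 9.91 on the control and 10.21, 10.22 and 10.29 on the silenced arrays, a log2 difference of 0.24 (limma adjusted p = 0.59).

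Of 38 other genes known to be induced by glucocorticoids, 24 were measured, and 13 had a log2 difference above 0 and 11 below, with a median of 0.03. NNMT, the nicotinamide methyltransferase, read 8.13, 8.30 and 8.41 on the control and 8.77, 8.86 and 8.90 on the silenced arrays. The groups did not overlap, the log2 difference was 0.56 (SE 0.10) and the limma adjusted p was 0.13. A further transcript cluster of NNMT gave 0.55 with an adjusted p of 0.096.

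MT1X, a metallothionein that binds zinc and copper, stood at the other end with 10.50, 10.41 and 10.48 on the control and 10.04, 10.15 and 10.17 on the silenced arrays, a log2 difference of -0.35 (limma adjusted p = 0.30). Metallothionein genes are close copies of each other, and probes of 1 copy can read others. MT2A, a second metallothionein, differed by -0.09 and MAOA, monoamine oxidase A, by 0.11. CRISPLD2, a secreted protein and named after its values were seen, read 5.77, 5.54 and 5.84 on the control and 6.41, 6.14 and 6.12 on the silenced arrays, a log2 difference of 0.51 (limma adjusted p = 0.32). The remaining genes of the list lay between MFSD2A at -0.22 and STOM at 0.16. The induced genes therefore pointed both ways, and the median difference lay near that of all transcript clusters.

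Glucocorticoids are known to repress inflammatory genes, and of 22 listed 14 were measured, 9 with a log2 difference below 0 and 5 above, with a median of -0.13. CXCL8, the neutrophil chemokine interleukin 8, read 8.68, 8.86 and 9.99 on the control and 7.93, 8.55 and 9.14 on the silenced arrays. The groups overlapped, and its log2 difference of -0.64 had a standard error of 0.41 (limma adjusted p = 0.83). The difference was -0.23 without control array 2d and -0.94 without silenced array 2d. On each label the silenced array read lower than the control array. With the replicate label as a further term, the standard error was 0.13, with a limma unadjusted p of 0.0044 and an adjusted p of 0.35. Without that term the limma unadjusted p was 0.16. For NNMT, EGR1, CRISPLD2, PTGS2, MT1X and EREG the same term raised limma's unadjusted p, for PTGS2 from 0.0098 to 0.021. Whether arrays of the same label are pairs is not known.

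PTGS2, the inducible cyclooxygenase and the other end of this list, read 4.72, 4.80 and 4.99 on the control and 5.32, 5.63 and 5.11 on the silenced arrays. Its groups did not overlap and its log2 difference was 0.52 (limma adjusted p = 0.45). All control values and silenced array 2d of PTGS2 lay below the array medians of 5.19 to 5.23, so the gene was dim. The chemokines CXCL2 and CCL20 differed by -0.28 and -0.12, and TNF by -0.001. The ends of this list, CXCL8 and PTGS2, therefore had opposite signs. MMP13 and CXCL3, named after their values were seen, came next by size with -0.46 and -0.29. Of these genes PTGS2 alone was higher on the silenced arrays. Of the 14, 0 passed limma's adjusted test, against 0.205% of all transcript clusters. An unadjusted p under 0.05 in limma was reached by 3 of the 14, PTGS2, MMP13 and CXCL3, against 7.39% of all transcript clusters.

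SGK1 and DUSP1 are also immediate early genes, which cells transcribe within minutes of a growth factor signal. Of 38 others listed 30 were measured, 20 with a log2 difference above 0 and 10 below, with a median of 0.06. In 6 of them, FOS, FOSB, EGR1, IER3, CCN2 and TRIB1, all silenced arrays lay above all control arrays, and in 2, FOSL1 and EREG, below. That is 20.0% and 6.67% of the 30, beside 6.43% and 6.27% of all transcript clusters and 6.55% and 7.67% of the named genes. EGR1, a zinc finger factor downstream of ERK signaling, read 10.56, 10.97 and 11.14 on the control and 11.67, 11.83 and 11.51 on the silenced arrays. Its log2 difference was 0.78 (SE 0.16, limma adjusted p = 0.24), and a further transcript cluster gave 0.94 (adjusted p = 0.41). The lowest silenced array lay 0.37 above the highest control array.

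CCN2, a matrix protein induced by YAP and serum response factor, read 10.61, 10.48 and 10.47 on the control and 11.05, 11.30 and 10.70 on the silenced arrays, a log2 difference of 0.49 (limma adjusted p = 0.51) that its further transcript cluster repeated with 0.48. As for SGK1, the highest array of CCN2 was silenced array 2 and the lowest control array 2d. FOS, FOSB, IER3, TRIB1 and FOSL1 are named after their values were seen. The AP-1 subunits FOS and FOSB differed by 0.29 and 0.26, the pseudokinase TRIB1 by 0.25, IER3 by 0.09 and the AP-1 subunit FOSL1 by -0.33. For FOS the lowest silenced array lay only 0.003 above the highest control array. For FOS and FOSB the further transcript cluster gave 0.20 and 0.02, with overlapping groups. Of the 11 transcript clusters of IER3 some overlapped, and those that did not had identical values. KLF6, a zinc finger factor, differed by 0.17 and ranged from 8.22 to 8.96 within the silenced group. These values stand beside the difference of SGK1, and their part in it was not tested.

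Of 21 genes for other SGK kinases, their activators and substrates, 13 were measured and 0 had an unadjusted p under 0.05, with a median log2 difference of -0.02. SGK2, the nearest measured relative of SGK1 and named for that relation, read 4.95, 5.07 and 5.22 on the control and 5.12, 4.97 and 5.08 on the silenced arrays, a difference of -0.03. The activators PDPK1, MTOR and MAPKAP1, the last 2 from mTOR complex 2, differed by 0.005, -0.13 and -0.02. AKT1, the related kinase, stood lowest with -0.21, while its further transcript cluster gave 0.03. NDRG1, whose protein SGK1 phosphorylates, stood highest with 5.96, 6.21 and 6.08 on the control and 6.19, 6.33 and 6.44 on the silenced arrays, a log2 difference of 0.24 with overlapping groups (limma adjusted p = 0.70). The substrates GSK3B and WNK1 differed by -0.04 and 0.08.

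The relatives of the other genes gave small differences as well. Of 22 listed 10 were measured, with a median of 0.003, from PER2, the second period gene, at -0.26 to DUSP10, a phosphatase of p38 and JNK, at 0.15. The phosphatases DUSP2 and DUSP5 differed by 0.10 and 0.01 and the KLF9 relative KLF16 by 0.02. DUSP10 read 7.31, 7.58 and 7.56 on the control and 7.62, 7.67 and 7.61 on the silenced arrays, without overlap and with a limma adjusted p of 0.83.

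ERRFI1 acts on the EGF receptor, whose family and ligands formed a list of 10 genes with 7 measured and a median log2 difference of -0.05. EREG, the ligand epiregulin, read 10.77, 10.79 and 10.72 on the control and 10.35, 10.37 and 10.11 on the silenced arrays. All silenced arrays lay below all control arrays, and the log2 difference was -0.48 (SE 0.10, limma adjusted p = 0.21). EGFR itself differed by -0.17 with overlapping groups, ERBB3 by -0.05 and ERBB4 by 0.20. HBEGF, another ligand, differed by 0.06.

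**Figure D4:**
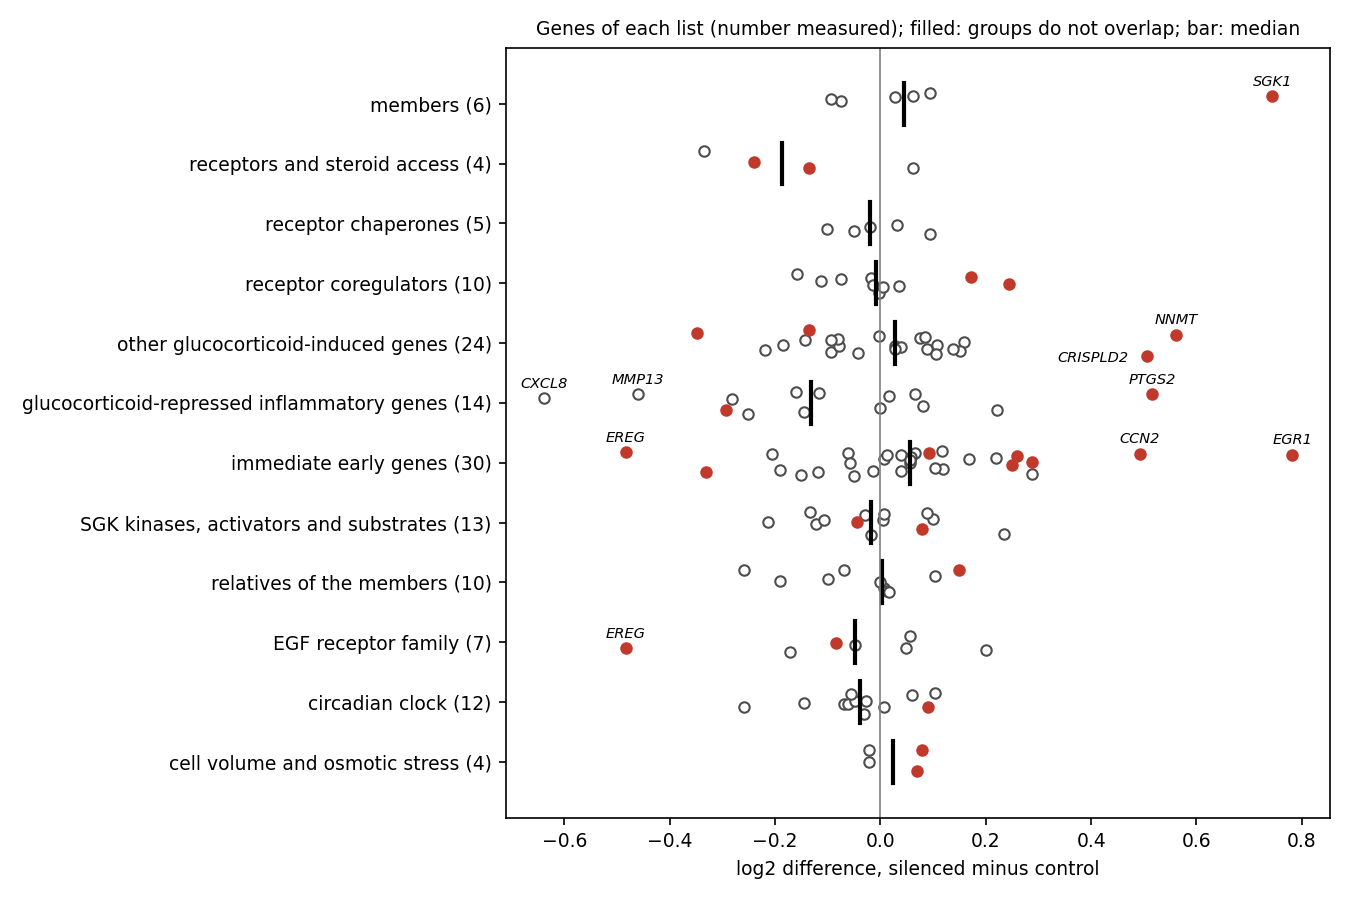
Log2 difference, silenced minus control (x axis), of every measured gene in each list (rows, with the number measured). Filled points are genes whose groups do not overlap, open points those that overlap, the black bars are medians, and names are given beyond 0.45 in either direction. SGK1 at 0.74 is the only filled point among the 6 members, EGR1 at 0.78 and NNMT at 0.56 lie highest among the other lists, and CXCL8 at -0.64 lies lowest.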

How the data were processed

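Total RNA of 6 SUM159 samples was amplified linearly (NuGEN Applause kit), labelled with biotin and read on Affymetrix Human Gene 2.0 ST arrays. The deposited values are log2 expression values, which the authors made in Partek 6.6 by RMA (background correction, quantile normalization over all arrays, median polish and log transform). The base of the log is inferred from the range of the values, not stated. RMA compresses differences of dim transcripts and removes shifts common to a whole array. Depth has no meaning for arrays, and 3 arrays per group limit the precision.

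The table was used unfiltered. Of 53617 transcript clusters 16098 had 1 symbol in the platform annotation, 0 several and 37519 none here. The transcript cluster with the highest mean over 6 arrays stood for a gene with several. The contrast of silenced and control arrays was fitted by limma 3.58.1 (lmFit, eBayes) under R 4.3.3, with group as the only term and Benjamini-Hochberg adjustment over all transcript clusters and a threshold of 0.05. Intervals are 95% intervals of that fit. The paper's methods use a two-way ANOVA with a factor not named in the sources used here. No set test was run, and p-values reflect the spread among these arrays alone, which may be technical.

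Members and lists were chosen with earlier results of these data known. Named genes are all measured members, up to 4 of the brightest genes and both ends of the range of each list, genes that passed, and the 5 genes most like SGK1. Alternatives covered array weights, arrays 2 and 2d averaged, centring, cyclic loess, named or bright transcript clusters only, the replicate block, trend and robust variances, the unmoderated test, the mean over transcript clusters, the limits of an unadjusted p under 0.05 with 1.5-fold, and leaving out each array.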

Additional observations from a re-analysis of the deposited data

How the results depend on the processing

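The log2 difference of SGK1 ran from 0.60 to 0.88 over 15 alternatives. Both ends came from leaving out 1 array (0.60 without silenced array 2, 0.88 without silenced array 2d). Its sign could not change there, since all silenced arrays lay above all control arrays. The replicate block, the variance settings, the unmoderated test and the subsets of transcript clusters leave every gene's estimate unchanged by design. The kept sign of SGK1 is therefore no separate evidence. FKBP5, PER1 and KLF9 kept their sign in all 15. DUSP1 (-0.21 to 0.01) and ERRFI1 (-0.20 to 0.00) changed sign in 1 alternative each, when 1 array was left out. The count of transcript clusters called by limma at an adjusted p under 0.05, 110, became 12 with arrays 2 and 2d averaged, 40 with the replicate block, 0 with the unmoderated test (Benjamini-Hochberg, 3764 at an unadjusted p under 0.05) and 15 to 48 without 1 array, where fewer arrays entered the fit, and 712 at 1.5-fold or more and an unadjusted p under 0.05. The number of the 6 genes called was 0 in each of these but 1, SGK1, at those unadjusted limits. The number of list genes called was 0 but 1, EGR1, at the same limits and 1, NNMT (adjusted p = 0.048), when only named transcript clusters were tested, a refit that changed the moderated variances as well as the number of adjusted p-values. The cause of these changes was not tested. Deviations of arrays that share a label correlated at 0.01, 0.00 and 0.09 for labels 1, 2 and 2d. Those of arrays with different labels correlated between -0.07 and 0.06. The labels were not taken as pairs. The replicate block cannot move an estimate in this balanced design, so SGK1 stayed at 0.74, while its standard error went from 0.17 to 0.13. Each of the 6 genes has 1 transcript cluster, so averaging clusters changes nothing for them. The spread between arrays limits what 3 against 3 can show, and small differences of dim genes cannot be told from 0.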

Other observations

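PER1 belongs to the circadian clock, of which 12 of 20 listed genes were measured beside it. Their median log2 difference was -0.04, 8 lay below 0 and 4 above, and 0 passed limma's adjusted test or an unadjusted p under 0.05. The activators CLOCK, BMAL1 and BMAL2 differed by -0.03, -0.03 and 0.06, CRY1 by 0.10 at the upper end and PER2 by -0.26 at the lower end, where silenced array 2d read 5.12 and silenced array 1 read 5.91.

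SGK1 also responds to cell volume, and 4 of 11 genes of osmotic stress and volume control were measured, with a median log2 difference of 0.02 and 0 passing an unadjusted p under 0.05. The kinases WNK1 and OXSR1, which control ion cotransporters, differed by 0.08 and 0.07, and STK39 and the chaperone HSPA4L by -0.02 each. For WNK1 and OXSR1 all silenced arrays lay above all control arrays, as they did for 6.43% of all transcript clusters. Both differences were small, and 55.1% and 60.2% of all transcript clusters had larger ones.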
